A study of Mus musculus with 8 samples.

Results

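Transcripts of 40 mouse genes of DNA replication and S phase were followed across 8 single-cell libraries of sorted bone marrow progenitors. The list of genes was chosen with earlier results of these data known, so counts over it are descriptive. It holds the 6 subunits of the MCM2-7 helicase, 5 genes of origin licensing and firing and 9 of polymerases, sliding clamp and fork. It also holds 3 genes of nucleotide supply, 8 of chromatin and histone supply, 6 of repair and 3 of cell cycle control. All 40 had rows among the 19879 gene names of the files. The libraries fell into 4 groups of 2: heterozygous plate2 (genotype Mof -/+, below het plate2), wild type plate2 (wt plate2), heterozygous HSC (het HSC) and wild type HSC (wt HSC). Mof is the older name of Kat8, a histone acetyltransferase gene. The design text gives haematopoietic stem cells (HSC, gated as LSK+ CD34- Flt3- CD48- CD150+), Pre-MeP, MEP, Pre-CFU-E, Pro-E, Pre-GMP, GMP and megakaryocyte progenitor gates, but which of these gates filled a given plate2 well is not labelled. The labels name no age, sex or strain. They do not tie libraries to animals either, so every p-value here rests on variation among libraries that could be technical. RNA was counted with CEL-Seq2, in which a molecular identifier added near the 3' end lets repeated copies of 1 transcript be counted once.

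Before a cell copies its genome, the MCM2-7 ring is loaded onto origins in G1, and in S phase Cdc45 and the GINS complex turn it into the active helicase. Polymerases held on DNA by the PCNA clamp then copy both strands, while ribonucleotide reductase and thymidylate synthase supply nucleotides and chaperones supply histones. Many of these genes are transcribed periodically, under E2F factors, as cells pass from G1 into S phase. Long-term haematopoietic stem cells are mostly quiescent, and committed erythroid and myeloid progenitors divide often.

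Among 1536 barcodes, 436 reached 1000 transcripts and are called wells here, 94 het plate2, 110 wt plate2, 136 het HSC and 96 wt HSC. The kept wells of a library summed to between 424490 and 733925 transcripts in plate2 libraries, with medians of 8082 to 12530.5 per well, and to between 99253 and 244109 in HSC libraries, with medians of 1567 to 2979. Each library held most transcripts in its own 96 barcodes, and 19 kept wells lay among the other 96, 11 of them in wt plate2 library 1. These 11 wells had member transcripts more often than the others (10 of 11 against 22 of 54 by the count used below). The same count gave 3 of 3 such wells in het plate2 library 1, 4 of 4 in wt plate2 library 2 and 1 of 1 in het HSC library 2. Shares of wells between plate sets are therefore also given for own barcodes only. The same barcode numbers occur in every file, and barcodes with the same number in different libraries are separate wells. Kat8 had 9 and 12 transcripts in het plate2 and 10 and 4 in wt plate2, against 1 and 2 in het HSC and 1 and 2 in wt HSC libraries, too few to check the genotype. A list of 12 stem cell markers summed to 465 to 942 CPM (the transcripts of a gene divided by all transcripts of a library's kept wells, on the usual CPM scale) in plate2 and 3187 to 4149 CPM in HSC libraries. A list of 11 erythroid progenitor markers summed to 3453 to 4474 CPM in plate2 and 975 to 2585 CPM in HSC libraries. The late erythroid list stood apart in wt HSC library 1, at 16040 CPM against 811 to 1721 CPM in the other HSC libraries.

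Plate2 wells carried several replication transcripts in an equal-sized sample of their RNA more often than HSC wells did. Each kept well was thinned at random to 1000 transcripts, and a well with at least 3 transcripts of the 40 genes was counted as a well with S phase transcripts. The het plate2 libraries had 24 of 48 (50%) and 26 of 46 such wells (56.5%), and the wt plate2 libraries had 32 of 65 (49.2%) and 23 of 45 (51.1%). The het HSC libraries had 17 of 68 (25.0%) and 13 of 68 (19.1%), and the wt HSC libraries 9 of 50 (18.0%) and 11 of 46 (23.9%). Every plate2 library was above every HSC library. Exact 95% binomial intervals ran from 35.2% to 64.8% in het plate2 library 1 and from 8.58% to 31.4% in wt HSC library 1, and cover counting error only. The mean over libraries was 51.7% ± 3.30 (SD, n = 4) in plate2 and 21.5% ± 3.46 in HSC libraries (n = 4). The difference of 30.2 percentage points had p = 0.0556 in an exact two-sided permutation of the plate labels within genotype, the smallest value that its 36 arrangements allow.

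**Figure D1:**
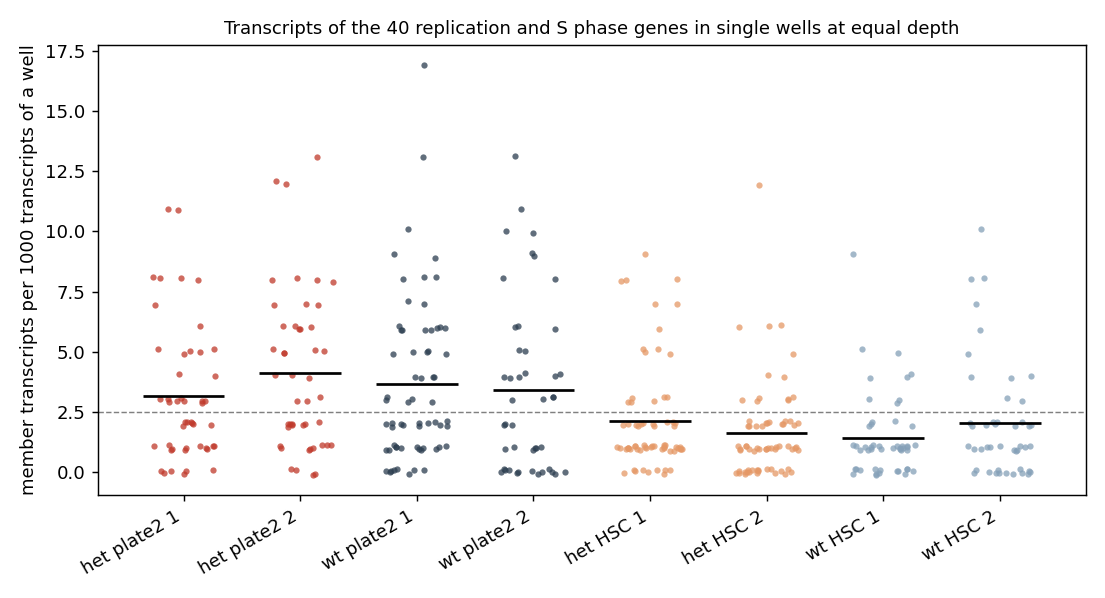
Each point is a kept well after thinning to 1000 transcripts; the vertical axis gives its transcripts of the 40 genes, black lines are library means, points are jittered, and the dashed line separates wells with at least 3. Means lie between 3.17 and 4.13 in plate2 libraries and between 1.42 and 2.13 in HSC libraries.

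The wells of a library differed widely among themselves. The mean per 1000 transcripts was 3.17 and 4.13 in het plate2, 3.65 and 3.42 in wt plate2, 2.13 and 1.62 in het HSC and 1.42 and 2.04 in wt HSC libraries. The highest well among own barcodes held 13 member transcripts per 1000 in plate2 (het plate2 library 2 and both wt plate2 libraries) and 12 in HSC libraries (het HSC library 2), and a well outside the own barcodes of wt plate2 library 1 held 17. The ratio of variance to mean was between 2.54 and 3.73 in plate2 and between 2.10 and 2.87 in HSC libraries, where independent counts of one rate would give 1. With at least 5 transcripts as the threshold, shares were 27.1% and 43.5% in het plate2 and 35.4% and 28.9% in wt plate2 libraries, against 16.2% and 7.35% in het HSC and 6.0% and 13% in wt HSC libraries. With at least 1 the 2 sets overlapped, at 71.1% to 91.3% in plate2 and 70.0% to 86.8% in HSC libraries. Without thinning, 84.4% to 95.7% of plate2 and 30% to 67.6% of HSC wells held at least 3. Within own barcodes the thinned shares were 46.7% and 56.5% in het plate2 and 40.7% and 46.3% in wt plate2, against 25.0% and 17.9% in het HSC and 18.0% and 23.9% in wt HSC libraries.

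Depth moved with these shares within libraries. In 6 of 8 libraries the deeper wells, split at the library's median, had the higher share at equal depth, for example 66.7% against 33.3% in het plate2 library 1 and 32.0% against 4.0% in wt HSC library 1. The exceptions were wt plate2 library 1 (45.5% against 53.1%) and het HSC library 2 (14.7% against 23.5%). Thinned to 2000 transcripts with at least 6 as the threshold, which leaves out shallower wells, the sets overlapped. Shares were then 42.5% and 68.3% in het plate2 and 40.8% and 38.5% in wt plate2, against 26.3% and 7.69% in het HSC and 38.5% and 42.9% in wt HSC libraries. Barcodes outside a library's own 96 held 4590 to 5743 CPM of member transcripts in plate2 and 1627 to 2129 CPM in HSC libraries. Median transcripts of added control RNA (spike-ins) per kept well were 10.5 to 18.0 in plate2 and 130 to 304 in HSC libraries. The plate sets share no library, so sorted cells and library preparation cannot be told apart between them. This holds for the shares and for the sums below. The part of depth and of transcripts from other wells in the shares was not tested.

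For single genes, counts were summed over the kept wells of each library and tested with edgeR. In such a sum, fewer wells with a transcript and less RNA per well cannot be told apart. Of the 40 members 38 passed the filter on low counts and were tested; Dscc1, a loader of the clamp, and Ccne2, a G1/S cyclin, were not. The filter keeps a gene with enough counts in as many libraries as a group holds. Members scarce in HSC libraries, such as Hells, E2f8 and Ung, passed it only through the plate2 libraries. Such members could be called higher in plate2 but hardly lower, so the counts are partly set by the filter. Over both genotypes 25 of 38 members were higher in plate2 than in HSC libraries at an adjusted p under 0.05 and 0 were lower. Of all 6690 genes tested, 19.5% were higher and 16.4% lower. The median log2 fold change was 1.35 over the members and 0.08 over all genes. Of the 25 members 17 also passed in each of 8 fits that left out a library, and Cdc45, Cdc6, Clspn, Gins2, Mcm10, Mcm6, Prim1 and Rrm1 lost the call in at least 1. All 4 plate2 libraries lay above all 4 HSC libraries for 18 of the 38 members, beside 12.1% of all genes tested. The members together summed to 3800 and 5143 CPM in het plate2 and 4344 and 3795 CPM in wt plate2, against 3163 and 1507 CPM in het HSC and 2096 and 2912 CPM in wt HSC libraries. The 5 wells with most of them held 34.6% to 51.0% of a plate2 library's member transcripts and 35.3% to 68.3% of an HSC library's.

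**Figure D2:**
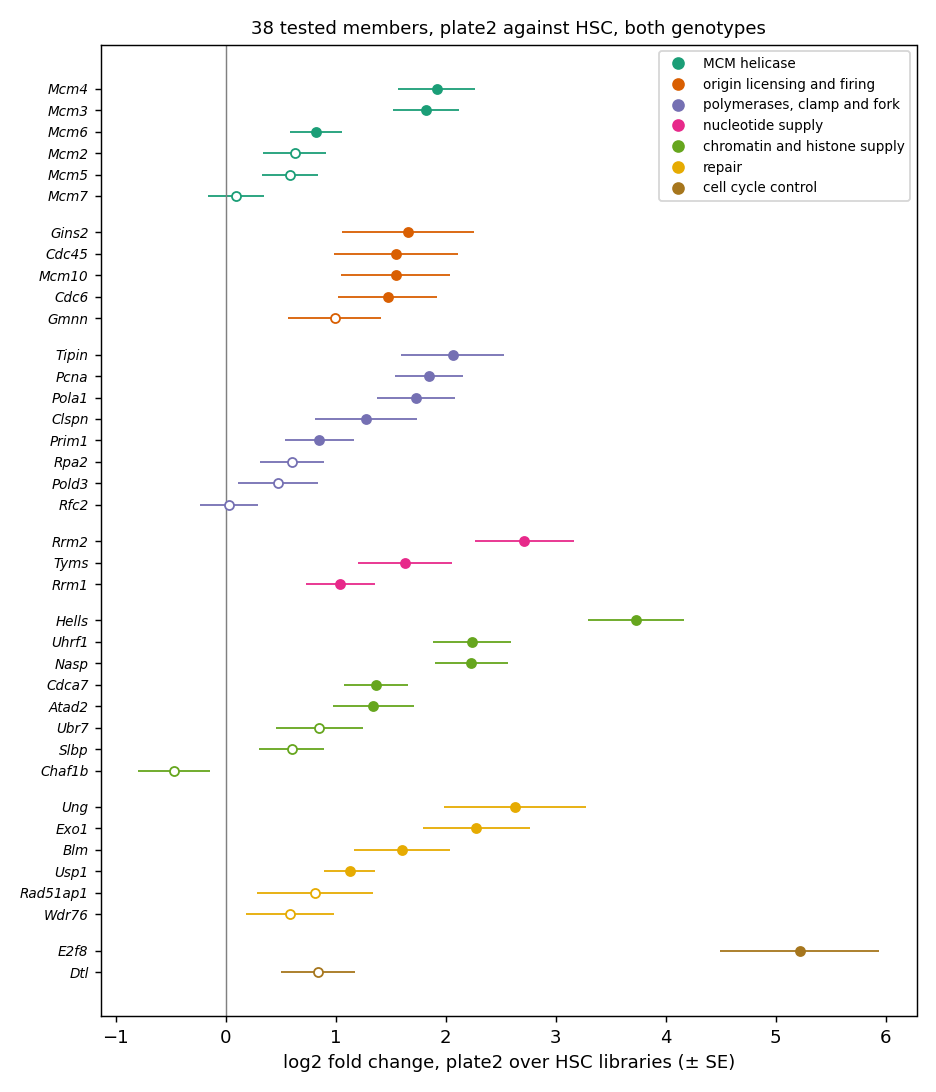
Each row is a tested member, ordered within its role; points give the log2 fold change of plate2 over HSC libraries with its SE, and filled points passed at an adjusted p under 0.05. Apart from Chaf1b all points lie right of 0; the position of E2f8 depends on the fit, since the wt HSC libraries held no transcript of it.

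The helicase subunits did not move alike. MCM2-7 is a ring of one copy of each subunit, and in plate2 libraries Mcm4, Mcm3 and Mcm6 were higher while Mcm2, Mcm5 and Mcm7 did not pass. Mcm4 had 111 and 168 CPM in het plate2 libraries and 161 and 113 CPM in wt plate2 libraries, against 86.03 and 34.8 CPM in het HSC libraries and 40.3 and 19.4 CPM in wt HSC libraries. The log2 fold change over HSC libraries was 1.92 ± 0.35 (SE, adjusted p = 0.000285). Mcm3 had 154 and 199 (het plate2) and 177 and 141 CPM (wt plate2), against 77.8 and 59.7 (het HSC) and 70.5 and 19.4 CPM (wt HSC). For Mcm3 the log2 fold change was 1.82 ± 0.30 (SE, adjusted p = 0.000111), and for both genes every plate2 library was above every HSC library. Mcm6 stood at 333 and 422 (het plate2) and 322 and 287 CPM (wt plate2), against 332 and 189 (het HSC) and 141 and 243 CPM (wt HSC). Its log2 fold change was 0.82 ± 0.24 (SE, adjusted p = 0.0103), and het plate2 library 1 and het HSC library 1 differed little. Mcm2 had 149 and 226 (het plate2) and 179.9 and 174 CPM (wt plate2), against 176 and 59.7 (het HSC) and 101 and 214 CPM (wt HSC). Mcm5 had 151 and 248 (het plate2) and 185 and 188 CPM (wt plate2), against 147 and 84.6 (het HSC) and 141 and 243 CPM (wt HSC). For Mcm2 the log2 fold change of 0.63 ± 0.29 had an adjusted p of 0.0943, and for Mcm5 0.59 ± 0.26 had 0.0785. Mcm7 ranged over 227 and 415 CPM in het plate2 libraries and 309 and 316 CPM in wt plate2 libraries, against 430.1 and 194 CPM in het HSC libraries and 302 and 466 CPM in wt HSC libraries. Its groups overlapped throughout, with a log2 fold change of 0.09 ± 0.26 and an approximate 95% interval from -0.41 to 0.59. Mcm7 overlaps Ap4m1 and Cops6 on chromosome 5, and whether counting used strand is not given in the sources used here.

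Of the 5 genes of origin licensing and firing 4 were higher in plate2 libraries. Cdc6 loads the MCM ring, and it had 44.4 and 60.5 (het plate2) and 68.1 and 65.96 CPM (wt plate2), against 32.8 and 0 (het HSC) and 40.3 and 29.1 CPM (wt HSC). Cdc45, a part of the active helicase, had 39.7 and 47.2 (het plate2) and 36.8 and 42.4 CPM (wt plate2), against 24.6 and 0 (het HSC) and 0 and 38.8 CPM (wt HSC). Neither was seen in het HSC library 2. Mcm10, which helps to activate the helicase, had 36.5 and 42.8 (het plate2) and 46.3 and 37.7 CPM (wt plate2), against 28.7 and 4.97 (het HSC) and 20.2 and 9.71 CPM (wt HSC). Gins2, a GINS subunit, had 36.5 and 45.7 (het plate2) and 50.4 and 54.2 CPM (wt plate2), against 53.3 and 0 (het HSC) and 10.1 and 9.71 CPM (wt HSC). Their log2 fold changes were 1.47 ± 0.45 (SE, adjusted p = 0.0139) for Cdc6, 1.55 ± 0.56 for Cdc45, 1.55 ± 0.50 for Mcm10 and 1.66 ± 0.60 for Gins2. Gmnn, which encodes geminin, an inhibitor of licensing, had a log2 fold change of 0.99 ± 0.42 and did not pass (adjusted p = 0.0702).

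Of 8 tested genes of polymerases, clamp and fork 5 were higher. Pcna, the sliding clamp, had 169.8 and 214 CPM in het plate2 libraries and 195 and 125 CPM in wt plate2 libraries, against 81.9 and 34.8 CPM in het HSC libraries and 40.3 and 67.95 CPM in wt HSC libraries. The plate2 libraries were all above the HSC libraries, with a log2 fold change of 1.85 ± 0.31 (SE, adjusted p = 0.000117). Pola1, the catalytic subunit of the primase-polymerase, had 76.2 and 111 (het plate2) and 91.3 and 80.1 CPM (wt plate2), against 49.2 and 29.8 (het HSC) and 30.2 and 19.4 CPM (wt HSC). Prim1, the primase that lays the RNA primer, had 63.5 and 97.4 (het plate2) and 89.9 and 73.03 CPM (wt plate2), against 53.3 and 59.7 (het HSC) and 50.4 and 48.5 CPM (wt HSC). Tipin, a fork protection factor, had 77.8 and 124 (het plate2) and 89.9 and 58.9 CPM (wt plate2), against 65.5 and 9.95 (het HSC) and 20.2 and 9.71 CPM (wt HSC). Claspin (Clspn), an adaptor of the replication checkpoint, was less even, with 55.6 and 98.8 (het plate2) and 92.7 and 65.96 CPM (wt plate2), against 36.9 and 9.95 (het HSC) and 0 and 116 CPM (wt HSC). Its highest value was in wt HSC library 2 and none was seen in wt HSC library 1. Log2 fold changes were 2.06 ± 0.47 for Tipin, 1.73 ± 0.35 for Pola1, 1.27 ± 0.46 for Clspn and 0.85 ± 0.31 for Prim1. The single-strand binding subunit Rpa2 passed in the heterozygous libraries (1.14 ± 0.39), and over both genotypes its adjusted p was 0.109. Its levels were 106 and 108 (het plate2) and 102 and 77.7 CPM (wt plate2), against 73.7 and 34.8 (het HSC) and 70.5 and 136 CPM (wt HSC). Rfc2, a clamp loader subunit, had 136 and 112 (het plate2) and 108 and 82.5 CPM (wt plate2), against 172 and 99.5 (het HSC) and 90.7 and 136 CPM (wt HSC). Its groups overlapped, and the log2 fold change was 0.03 ± 0.26, with an approximate 95% interval from -0.48 to 0.55. Pold3, a subunit of polymerase delta, did not pass either (log2 fold change 0.48 ± 0.37).

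All 3 genes of nucleotide supply were higher. Rrm2, the small subunit of ribonucleotide reductase that limits its activity outside S phase, had 84.1 and 122 CPM in het plate2 libraries and 154 and 91.9 CPM in wt plate2 libraries, against 53.3 and 24.9 CPM in het HSC libraries and 0 and 19.4 CPM in wt HSC libraries. For Rrm2 the log2 fold change was 2.72 ± 0.45 (SE, adjusted p = 0.00011). In wild type libraries this rests on 152 transcripts in plate2 and 2 in HSC, a ratio of 13.3 relative to library totals, with an exact interval from 3.61 to 110.6 for counting error. Rrm1, the large subunit, had 133 and 190.3 (het plate2) and 144 and 122 CPM (wt plate2), against 143 and 39.8 (het HSC) and 80.6 and 67.95 CPM (wt HSC). Its groups overlapped through het HSC library 1, and its log2 fold change was 1.04 ± 0.32 (SE, adjusted p = 0.0134). Tyms, which makes thymidylate, had 63.5 and 81.1 (het plate2) and 70.9 and 42.4 CPM (wt plate2), against 32.8 and 4.97 (het HSC) and 20.2 and 38.8 CPM (wt HSC). For Tyms the log2 fold change was 1.63 ± 0.43 (SE, adjusted p = 0.00542).

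Among genes of chromatin and histone supply 5 of 8 were higher, and Hells had the clearest separation. Hells encodes a chromatin remodeller needed for DNA methylation. It had 95.2 and 167 CPM in het plate2 libraries and 124 and 106 CPM in wt plate2 libraries, against 12.3 and 9.95 CPM in het HSC libraries and 10.1 and 9.71 CPM in wt HSC libraries. Transcripts of Hells were found in 14 to 28 wells of a plate2 library and in 1 to 3 wells of an HSC library. Its log2 fold change was 3.73 ± 0.43 (SE, adjusted p = 1.75e-06). The HSC values of Hells rest on 3, 2, 1 and 1 transcripts. In wild type libraries it had 136 transcripts in plate2 and 2 in HSC, a ratio of 11.9 relative to library totals. The exact interval of this ratio for counting error ran from 3.22 to 99.0. Uhrf1, which brings the maintenance DNA methyltransferase to replicated DNA, had 111 and 171 (het plate2) and 139 and 91.9 CPM (wt plate2), against 40.97 and 14.9 (het HSC) and 40.3 and 29.1 CPM (wt HSC). Nasp, a histone chaperone, had 143 and 176 (het plate2) and 172 and 141 CPM (wt plate2), against 65.5 and 19.9 (het HSC) and 30.2 and 38.8 CPM (wt HSC). Plate2 libraries were all above HSC libraries for both genes, and log2 fold changes were 2.24 ± 0.36 (SE, adjusted p = 7.25e-05) for Uhrf1 and 2.23 ± 0.33 (SE, adjusted p = 3.25e-05) for Nasp. Cdca7, a partner of Hells, had 117 and 183 (het plate2) and 140.3 and 141 CPM (wt plate2), against 69.6 and 54.7 (het HSC) and 101 and 38.8 CPM (wt HSC). Atad2, a bromodomain ATPase, had 79.4 and 124 (het plate2) and 83.1 and 104 CPM (wt plate2), against 49.2 and 29.8 (het HSC) and 10.1 and 87.4 CPM (wt HSC). Log2 fold changes were 1.37 ± 0.29 for Cdca7 and 1.34 ± 0.37 for Atad2. Slbp, which binds the end of histone mRNAs, had 152 and 169.7 (het plate2) and 158 and 177 CPM (wt plate2), against 180.2 and 44.8 (het HSC) and 111 and 165 CPM (wt HSC). It did not pass (log2 fold change 0.60 ± 0.29, adjusted p = 0.116), nor did the histone reader Ubr7 (0.85 ± 0.40). Chaf1b, a subunit of the chromatin assembly factor CAF-1, was the only member with a negative log2 fold change, -0.47 ± 0.33, and did not pass.

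**Figure D3:**
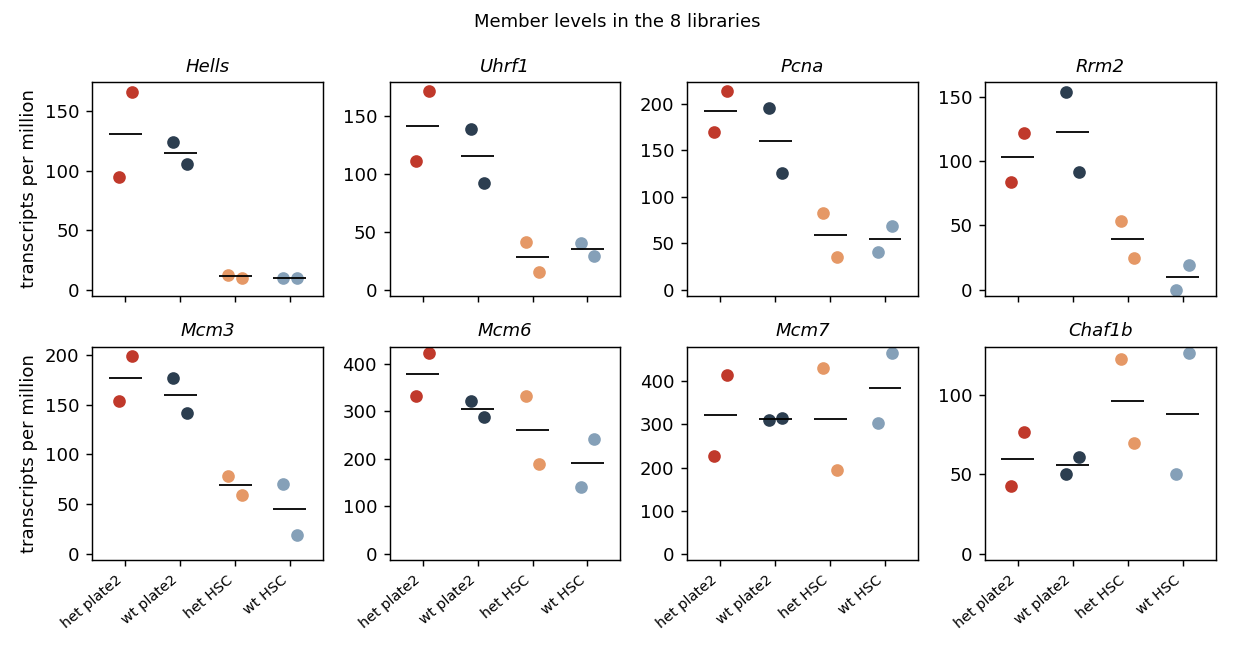
Levels of 8 members in CPM, each point a library and each line the mean of a group. Hells, Uhrf1, Pcna, Rrm2 and Mcm3 are separated between plate2 and HSC libraries, and Mcm6, Mcm7 and Chaf1b overlap.

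Of 6 repair genes 4 were higher. Ung, a uracil glycosylase, had 57.1 and 47.2 (het plate2) and 39.5 and 51.8 CPM (wt plate2), against 28.7 and 0 (het HSC) and 0 and 9.71 CPM (wt HSC). Exo1, an exonuclease of mismatch repair, had 41.3 and 63.4 (het plate2) and 49.1 and 42.4 CPM (wt plate2), against 8.19 and 4.97 (het HSC) and 30.2 and 9.71 CPM (wt HSC). Blm, a RecQ helicase, had 74.6 and 67.9 (het plate2) and 54.5 and 47.1 CPM (wt plate2), against 32.8 and 19.9 (het HSC) and 40.3 and 0 CPM (wt HSC). Log2 fold changes were 2.63 ± 0.64 for Ung, 2.28 ± 0.49 for Exo1 and 1.60 ± 0.44 for Blm. In wild type libraries Ung rests on 51 transcripts in plate2 and 1 in HSC. Usp1, which removes ubiquitin from PCNA and FANCD2, had 198 and 240.5 (het plate2) and 228 and 179 CPM (wt plate2), against 73.7 and 84.6 (het HSC) and 151 and 175 CPM (wt HSC). Its log2 fold change was 1.13 ± 0.23 (SE, adjusted p = 0.000883). Rad51ap1 and Wdr76 did not pass, at 0.81 ± 0.53 for Rad51ap1 and 0.58 ± 0.40 for Wdr76. Among cell cycle genes the atypical repressor E2f8 passed, with 76.2 and 81.1 CPM in het plate2 libraries and 83.1 and 58.9 CPM in wt plate2 libraries, against 16.4 and 14.9 CPM in het HSC libraries and 0 and 0 CPM in wt HSC libraries. The heterozygous libraries gave a log2 fold change of 2.49 ± 0.51 (SE, adjusted p = 0.00173). The wild type libraries held 86 transcripts in plate2 and 0 in HSC, so E2f8 was at least 5.01-fold higher, taking 3 counts over the HSC group as the floor. E2f8 overlaps the predicted gene Gm2788. Dtl, an adaptor for destruction of Cdt1, did not pass (0.84 ± 0.34, adjusted p = 0.0573). Ccne2 had 30 transcripts in wt plate2 and 0 in wt HSC libraries, at least 1.75-fold higher on the same floor. The 9 members not given library by library (Gmnn, Pold3, Dscc1, Ubr7, Chaf1b, Rad51ap1, Wdr76, Dtl and Ccne2) lay between 15.9 and 88.5 CPM in plate2 libraries and between 0 and 126.2 CPM in HSC libraries.

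The plate sets were also compared within each genotype, as contrasts of the same fit over all 8 libraries. In heterozygous libraries 20 of 38 members were higher in plate2 (11.9% of all genes higher, 10.3% lower) and in wild type libraries 11 of 38 (9.55% higher, 8.21% lower), with 0 members lower in both. Leaving out 1 library moved the median log2 fold change of the members. Heterozygous libraries gave 1.66 or 1.14 without het plate2 library 1 or 2, and 2.12 or 0.86 without het HSC library 1 or 2. Wild type libraries gave 1.15 or 1.20 without wt plate2 library 1 or 2, and 1.48 or 1.42 without wt HSC library 1 or 2. The 11 wild type calls were Mcm3, Mcm4, Pcna, Pola1, Tipin, Rrm2, Hells, Uhrf1, Nasp, Ung and E2f8. With all 8 libraries the median log2 fold change of the members was 1.43 in heterozygous and 1.18 in wild type libraries.

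Some member promoters hold E2F-type letters, and 3 of them are shown because they carry several roles of the list: a subunit that passed (Mcm6), one that did not (Mcm5) and a polymerase (Pola1). RefSeq promoter windows (GRCm38.p6, 250 bases before to 50 after each start) were found for 30 of the 40 members, 33 windows in all. The motifs TTTCCCGC, TTTGGCGC, TTTCGCGC and TTTGCCGC were searched on both strands, and TTTGGCGC and the reverse of TTTCGCGC can overlap. At least 1 occurred in 13 of 33 member windows (39.4%) and in 2.26% of all 32851 windows. The 13 genes were Mcm3, Mcm5, Mcm6, Mcm7, Cdc6, Clspn, Pola1, Pold3, Cdca7, Hells, Uhrf1, Ubr7 and Dtl. The shorter motif CCAAT occurred in 72.7% of member windows and in 37.4% of all. A match of letters is a description and not a bound site. The stretches below are the 190 bases before the start, 5' to 3', with E2F-type letters in capitals, for Mcm6 (minus strand, chr1:128359706-128359895), Mcm5 (plus strand, chr8:75109319-75109508) and Pola1 (minus strand, chrX:93632156-93632345).
Mcm6: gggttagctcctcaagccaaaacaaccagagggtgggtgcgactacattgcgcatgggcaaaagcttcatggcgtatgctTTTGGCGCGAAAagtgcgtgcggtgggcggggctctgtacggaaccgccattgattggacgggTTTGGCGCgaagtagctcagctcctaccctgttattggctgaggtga
Mcm5: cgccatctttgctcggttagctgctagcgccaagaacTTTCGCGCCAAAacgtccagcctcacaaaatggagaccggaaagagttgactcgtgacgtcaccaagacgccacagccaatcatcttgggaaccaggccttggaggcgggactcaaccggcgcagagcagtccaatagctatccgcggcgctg
Pola1: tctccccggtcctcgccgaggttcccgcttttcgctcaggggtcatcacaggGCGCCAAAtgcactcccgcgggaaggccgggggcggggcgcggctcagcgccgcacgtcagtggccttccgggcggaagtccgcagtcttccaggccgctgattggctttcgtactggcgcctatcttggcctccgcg

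Within the plate2 libraries, wells with erythroid or neutrophil progenitor markers carried replication transcripts more often than wells with stem cell markers. A well was marked by a list when it held at least 2 transcripts of it per 1000 and more than of the other 2 lists; this division was added after the data were seen and uses no member gene. Over own barcodes, 54 of 77 erythroid-marked (70.1%) and 14 of 19 neutrophil-marked wells (73.7%) had S phase transcripts, against 9 of 42 stem-marked wells (21.4%) and 11 of 48 unmarked wells (22.9%). Per library the erythroid-marked share was 75% and 75% in het plate2 and 57.9% and 71.4% in wt plate2, and the stem-marked share 11.1% and 12.5% in het plate2 and 21.4% and 36.4% in wt plate2. Each of the 4 libraries had the higher share in its erythroid-marked wells. The neutrophil-marked wells numbered 4, 7, 7 and 1 in het plate2 1 and 2 and wt plate2 1 and 2, and the single well of wt plate2 library 2 had fewer than 3. Of the wells, 9 erythroid-marked, 1 neutrophil-marked and 14 stem-marked sat at the minimum of 2 marker transcripts. Median depth also differed, at 14085 transcripts in erythroid-marked, 21422 in neutrophil-marked and 8969 in stem-marked wells, and its part was not tested. Median marker transcripts per 1000 were 5 erythroid in erythroid-marked, 12 neutrophil in neutrophil-marked and 3 stem in stem-marked wells, with medians of 0 to 1 for the other 2 lists.

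**Figure D4:**
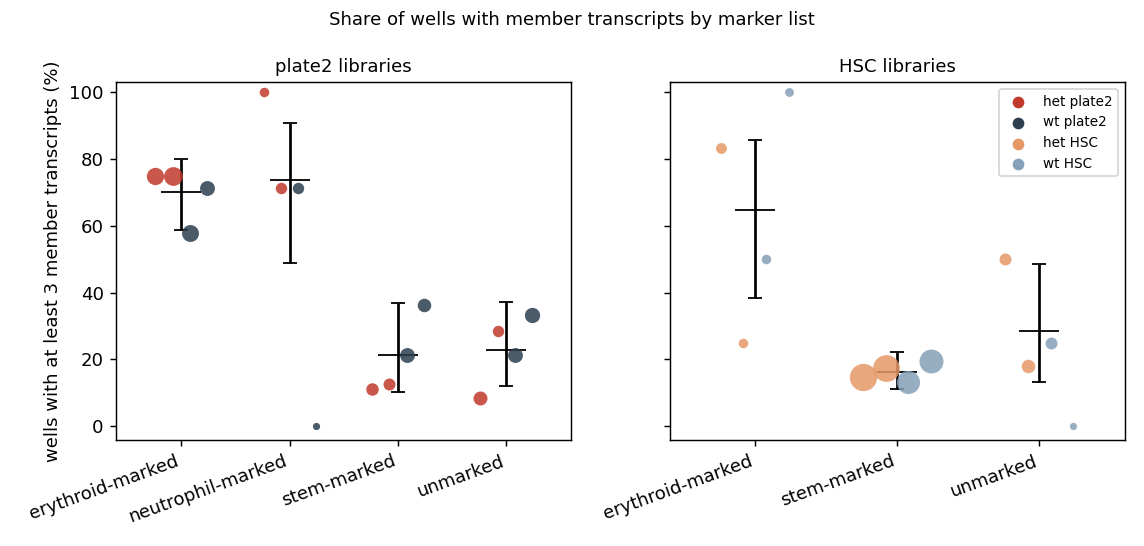
Share of wells with at least 3 member transcripts per 1000 by marker list. Coloured points are libraries, larger with more wells. Black lines give the share pooled over libraries with its exact 95% interval, which covers counting error only. Erythroid- and neutrophil-marked plate2 wells pool to 70.1% and 73.7%, stem-marked wells to 21.4% in plate2 and 16.2% in HSC libraries.

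In the HSC libraries 11 of 17 erythroid-marked wells (64.7%) and 30 of 185 stem-marked wells (16.2%) had S phase transcripts, and 1 well was neutrophil-marked. When only stem-marked wells were compared, the shares were 11.1% and 12.5% in het plate2 and 21.4% and 36.4% in wt plate2, against 14.8% and 17.3% in het HSC and 13.2% and 19.5% in wt HSC libraries. The sets overlapped, with a difference of 4.15 points (exact permutation p = 0.667, smallest possible 0.0556). In sums over stem-marked wells 6 members could be tested and 1 was higher (Cdca7), where 14.6% of all 2111 genes tested were higher and 12.6% lower (27.2% in all). Cdca7 stood at a log2 fold change of 1.49 ± 0.41 (SE, adjusted p = 0.00722). Of these 6 members 4 had passed over all wells, namely Cdca7, Mcm3, Mcm6 and Usp1. Over stem-marked wells Mcm6 stood at 0.08 ± 0.33, against 0.82 ± 0.24 over all wells, and Usp1 at 0.20 ± 0.39, against 1.13 ± 0.23 over all wells. Mcm7 stood at -0.82 ± 0.35 (adjusted p = 0.0822), with 50.3, 188, 93.5 and 112 CPM in the stem-marked wells of the plate2 libraries and 266, 199, 173 and 286 CPM in those of the HSC libraries. The other members did not pass the filter on low counts in these sums, so the count of 1 of 6 does not cover them. Their mean CPM over libraries was higher in plate2 than in HSC libraries for all but Mcm5, Prim1, Dscc1, Chaf1b and Rad51ap1. Many of these means rest on few transcripts, and the differences were not tested. In stem-marked wells Hells had 50.3, 134, 70.1 and 61.4 CPM in plate2 libraries, against 6.65, 12.5, 0 and 0 CPM in HSC libraries. Nasp had 50.3, 93.9, 38.95 and 123 CPM, against 13.3, 18.7, 0 and 14.3 CPM. Chaf1b had 25.2, 80.5, 31.2 and 40.9 CPM, against 120, 81.0, 62.9 and 100 CPM.

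Tested on sums per marker list and library, with library as a term, 24 of 28 tested members were higher in erythroid-marked than in stem-marked wells and 0 were lower. Of all 2672 genes tested, 20.2% were higher and 21.9% lower. Between neutrophil-marked and stem-marked wells 20 of 28 were higher and 0 lower, where 16.1% of all genes were higher and 13.8% lower (29.9% in all). Without wt plate2 library 1 the count of 20 fell to 8 of 26, and the genes higher over all fell from 430 of 2672 to 255 of 2671. Median log2 fold changes of the members were 1.47 and 1.30, and 0.01 and 0.05 over all genes. The other 12 members did not pass the filter on low counts in these sums. As between plate sets, a member near absent from stem-marked wells, such as E2f8, passed this filter only through the other marked wells. The helicase subunits that did not pass between plate sets passed here. Mcm7 had 287, 449, 415 and 499 CPM in erythroid-marked and 238, 451 and 389 CPM in neutrophil-marked wells, against 50.3, 188, 93.5 and 112 CPM in stem-marked wells. Its log2 fold change was 1.74 ± 0.24 (SE, adjusted p = 1.2e-06) for erythroid-marked and 1.66 ± 0.28 (SE, adjusted p = 3.14e-05) for neutrophil-marked over stem-marked wells. In the same order of wells Mcm5 stood at 1.68 ± 0.31 and 1.84 ± 0.35, and Mcm2 at 1.59 ± 0.29 and 1.27 ± 0.36. Only Mcm3 of the 6 subunits missed the threshold in erythroid-marked wells (0.72 ± 0.30, adjusted p = 0.0534).

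Among polymerases, clamp and fork 6 of 7 tested members were higher in erythroid-marked and 5 of 7 in neutrophil-marked wells, and among genes of chromatin and histone supply 4 of 6 in each. Origin genes gave 3 of 3 in erythroid-marked and 1 of 3 in neutrophil-marked wells, nucleotide supply 2 of 2 in each, and repair and cell cycle control 2 of 2 each in erythroid-marked and 1 of 2 each in neutrophil-marked wells. Pcna had 207, 228, 286 and 197 CPM in erythroid-marked and 209, 187 and 273 CPM in neutrophil-marked wells, against 75.5, 80.5, 38.95 and 61.4 CPM in stem-marked wells. Its log2 fold change was 1.71 ± 0.29 for erythroid-marked and 1.66 ± 0.34 for neutrophil-marked over stem-marked wells. Rrm2 had 105, 127, 252 and 157 CPM in erythroid-marked and 124, 187 and 133 CPM in neutrophil-marked wells, against 0, 13.4, 15.6 and 61.4 CPM in stem-marked wells. Uhrf1 had 156, 156, 217 and 134 CPM in erythroid-marked and 105, 247 and 182 CPM in neutrophil-marked wells, against 12.6, 67.1, 7.79 and 40.9 CPM in stem-marked wells. The marked groups did not overlap the stem-marked wells for any of these 3 genes. E2f8 was near absent from stem-marked wells, with 2 transcripts, against 143 in erythroid-marked and 27 in neutrophil-marked wells. That is a ratio of 21.1 (interval 5.73 to 175.6) for erythroid-marked and 14.9 (3.76 to 129.7) for neutrophil-marked wells, for counting error only. Beside Mcm3, the members that missed the threshold in erythroid-marked wells were Rpa2 (0.41 ± 0.34, adjusted p = 0.357) and Hells and Cdca7, which work together in chromatin remodelling. Cdca7 had 114, 171, 132 and 145 CPM in erythroid-marked and 125.8, 215, 109 and 143 CPM in stem-marked wells (log2 fold change -0.24 ± 0.25). Hells had 116, 161, 106 and 145 CPM in erythroid-marked and 50.3, 134, 70.1 and 61.4 CPM in stem-marked wells (0.58 ± 0.32, adjusted p = 0.151), while neutrophil-marked wells passed for Hells at 1.29 ± 0.36. In erythroid-marked HSC wells Hells had 2 transcripts and a library mean of 12.3 CPM, against 132 CPM in erythroid-marked plate2 wells. Mcm7 had 94 transcripts in these HSC wells, with library means of 675 CPM there and 413 CPM in erythroid-marked plate2 wells.

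Between erythroid-marked and neutrophil-marked wells 1 of 28 members was higher and 0 lower, beside 8.05% and 12.9% of all genes, and 4 members had an unadjusted p under 0.05. That member was Blm, with 96.6, 93.7, 82.9 and 87.1 CPM in erythroid-marked wells, against 28.5, 25.5 and 41.4 CPM in neutrophil-marked wells of the 3 libraries that had at least 2 such wells (log2 fold change 1.43 ± 0.46 (SE, adjusted p = 0.0255)). The call was lost without het plate2 library 1 or 2. For Mcm7 and Pcna the log2 fold changes were 0.08 ± 0.21 and 0.05 ± 0.24, with approximate 95% intervals from -0.34 to 0.49 and from -0.42 to 0.51.

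Barcode position was read first in 8 runs of 12 barcodes, where no member passed. Of 20 members tested over the 4 plate2 libraries 0 passed (edgeR, adjusted p under 0.05), 1 had an unadjusted p under 0.05, and 0.291% of all genes passed. The share of wells with S phase transcripts was between 17.4% (4 of 23, run 6) and 65.2% (15 of 23, run 8). Barcodes were then taken by their place in each run of 8, a division chosen after the marker lists were seen to follow it. By place 9 of 22 members passed (40.9%), beside 29.0% of all genes: Rrm2, Mcm7, Clspn, Rrm1, Cdca7, Uhrf1, Slbp, Hells and Pcna. Pooled over plate2 libraries the share was 77.3% at place 1 (17 of 22 wells), 72.0% at place 4 (18 of 25) and 28.6% at place 6 (10 of 35). The order was not the same in all libraries, and the 2 wt plate2 libraries differed from each other. In het plate2 libraries place 1 had 92.3% (12 of 13) and place 6 had 17.6% (3 of 17). In wt plate2 libraries place 1 had 55.6% (5 of 9), place 5 had 66.7% (4 of 6), place 6 had 38.9% (7 of 18) and place 8 had 27.3% (3 of 11). Of these, wt plate2 library 1 had 5 of 7 wells at place 1, 0 of 2 at place 5 and 1 of 8 at place 6. In wt plate2 library 2 the counts at these places were 0 of 2, 4 of 4 and 6 of 10. The stem cell list summed to 1581 to 2354 CPM over libraries at places 6 and 7 and to at most 639 CPM elsewhere. At place 1 the neutrophil progenitor list reached 9699 to 16996 CPM in both het plate2 libraries, and it ranged from 34.6 to 12959 CPM in the wt plate2 libraries. In the HSC libraries 0 of 1 tested member passed by run, where 0.748% of all genes did, and no member could be tested by place. HSC shares by place ran from 8.33% (2 of 24) to 32.3% (10 of 31). A barcode's place is not a sort gate, and positions are described only.

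The comparison of genotypes asks whether 1 functional copy of Mof changes the members, and no member passed. In counts simulated on the same layout, 2-fold changes passed for 3 of 89 genes in plate2, 0 of 89 in HSC libraries and 11 of 89 over both sets. The lack of calls therefore does not exclude changes of that size. The simulation set the same spread for every gene and drew changed genes from all that passed the filter. Its rates need not be those of the members. Among plate2 libraries 0 of 38 passed between het and wt, beside 0.553% of all genes (0.0299% higher, 0.523% lower), and 0 had an unadjusted p under 0.05. Among HSC libraries 0 of 38 passed, beside 0.0149%, and 2 had an unadjusted p under 0.05. Over both sets 0 of 38 passed, beside 0.135% (0.12% lower), with 0 at an unadjusted p under 0.05. The difference of the genotype effects gave 0 of 38, with 3 at an unadjusted p under 0.05. DESeq2 gave 0 members in all 4 comparisons, with 1 at an unadjusted p under 0.05 in HSC libraries and 0 in the others. Median log2 fold changes of the members were -0.0016 in plate2, 0.03 in HSC and -0.06 over both sets. These medians turned with single libraries: in HSC libraries the median was -0.78 without het HSC library 1 and 0.36 without het HSC library 2, and in plate2 libraries it was 0.20 without het plate2 library 1 and -0.24 without het plate2 library 2. Without het HSC library 1, 10 of 40 members had an unadjusted p under 0.05 in HSC libraries, and 0 passed. Approximate 95% intervals in plate2 libraries ran from -0.40 to 0.75 for Mcm6, from -0.75 to 0.57 for Mcm7, from -0.49 to 0.71 for Pcna and from -0.54 to 0.64 for Hells. The lowest p in HSC libraries was that of Usp1, at -1.12 ± 0.40 (SE, adjusted p = 0.324), whose 2 het HSC values were both below its 2 wt HSC values.

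Shares of wells with S phase transcripts were also compared between genotypes. The 2 libraries of a group had an SD of 4.61 points in het plate2, 1.33 in wt plate2, 4.16 in het HSC and 4.18 in wt HSC. Over both sets het minus wt was 2.10 points (exact permutation p = 0.333, 36 arrangements, smallest possible 0.0556). It was 3.09 points in plate2 and 1.10 points in HSC libraries (exact p = 0.667 each, smallest possible 0.333). Over both sets the difference turned to -3.95 points when wells were thinned to 2000 transcripts with at least 6 as the threshold (exact p = 0.722) and to -8.68 points in stem-marked wells (exact p = 0.167), and it was 8.90 points with at least 1 transcript (exact p = 0.222). Among erythroid-marked plate2 wells 33 of 44 (75%) had S phase transcripts in het plate2 and 21 of 33 (63.6%) in wt plate2. By library these were 75% and 75% against 57.9% and 71.4%. Among stem-marked wells there were 2 of 17 (11.8%) in het plate2 and 7 of 25 (28%) in wt plate2. By library these were 11.1% and 12.5% against 21.4% and 36.4%. Exact intervals of the pooled stem-marked shares ran from 1.46% to 36.4% and from 12.1% to 49.4%, and cover counting error only. For both marks the het and wt plate2 libraries did not overlap, in opposite directions, and this was not tested within plate2. In sums over erythroid-marked wells 0 of 40 members passed between genotypes and 1 had an unadjusted p under 0.05, and of all 5363 genes tested 0.0746% passed (0.0373% higher and 0.0373% lower).

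Wells with S phase transcripts also held transcripts of G2 and mitosis more often than other wells. Of 105 such plate2 wells 62 (59.0%) had at least 2 transcripts of a 28-gene G2 and mitosis list per 1000, against 18 of 99 other wells (18.2%). In HSC libraries 16 of 50 (32.0%) did, against 13 of 182 (7.14%). The share was higher in the wells with S phase transcripts in each of the 8 libraries. These counts include wells outside a library's own barcodes, and own barcodes were not counted separately here. Median depths of these wells were not compared, and the part of depth was not tested.

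**Figure D5:**
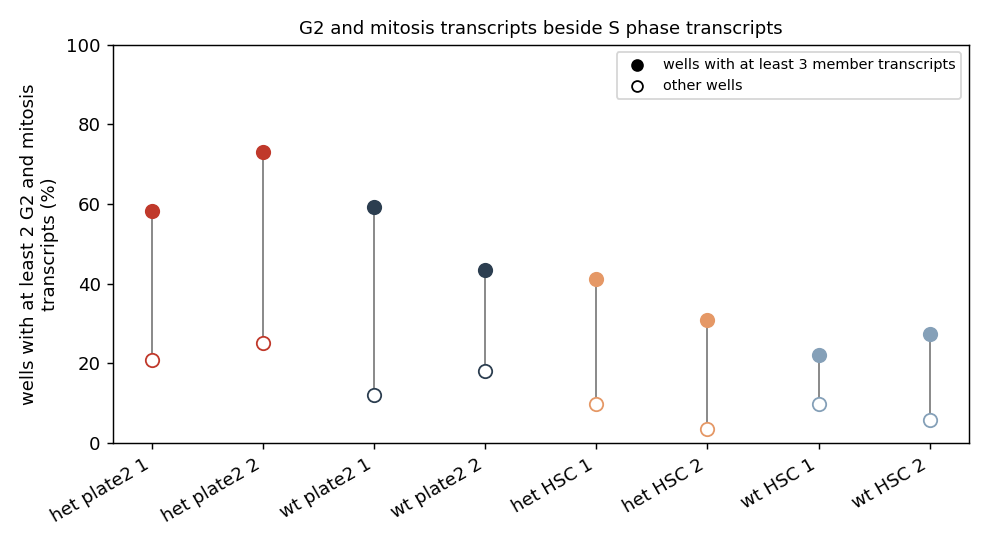
For each library, the percentage of wells with at least 2 G2 and mitosis transcripts per 1000, among wells with at least 3 member transcripts (filled) and among the other wells (open). Filled points lie above open points in all 8 libraries.

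Other genes of the pathway were read from a list of 66 further replication genes. Of 50 tested, 21 were higher and 2 lower in plate2 than in HSC libraries over both genotypes, with a median log2 fold change of 0.87. Of all 6690 genes tested, 19.5% were higher and 16.4% lower. Topbp1, a checkpoint and origin-firing scaffold, had 116 and 137 (het plate2) and 119 and 129.6 CPM (wt plate2), against 65.5 and 89.5 (het HSC) and 0 and 29.1 CPM (wt HSC). For Topbp1 the log2 fold change was 2.10 ± 0.38 (SE, adjusted p = 0.000264). Tonsl, a reader of new histones at broken forks, went the other way, with 117 and 105 (het plate2) and 112 and 106 CPM (wt plate2), against 249.9 and 269 (het HSC) and 433 and 447 CPM (wt HSC). Each HSC library was above each plate2 library for Tonsl (log2 fold change -1.39 ± 0.20 (SE, adjusted p = 3e-05)). Rpa3, the smallest subunit of RPA, had 34.9 and 26.6 (het plate2) and 36.8 and 32.98 CPM (wt plate2), against 0 and 0 (het HSC) and 0 and 0 CPM (wt HSC). Esco2, a cohesin acetyltransferase of S phase, had 34.9 and 36.9 (het plate2) and 36.8 and 42.4 CPM (wt plate2), against 8.19 and 4.97 (het HSC) and 0 and 0 CPM (wt HSC), with no transcript in wild type HSC libraries. In erythroid-marked over stem-marked wells 15 of 23 tested genes of this list were higher and 0 lower, beside 20.2% and 21.9% of all 2672 genes. Among the 15 were the DNA ligase Lig1 (2.65 ± 0.30), the dUTPase Dut (2.16 ± 0.32), the thymidine kinase Tk1 (3.46 ± 0.55) and the S phase cyclin Ccna2 (2.79 ± 0.57). In neutrophil-marked over stem-marked wells 8 of 23 were higher and 0 lower, beside 16.1% and 13.8% of all genes.

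Of 23 tested G2 and mitosis genes 12 were higher in plate2 than in HSC libraries and 0 lower, beside 19.5% and 16.4% of all genes. The median log2 fold change of the 23 was 1.02. The condensin subunits Smc4 and Smc2 stood at 1.34 ± 0.23 and 1.58 ± 0.28. Nusap1, a spindle protein, had 42.9 and 45.7 (het plate2) and 42.2 and 40.05 CPM (wt plate2), against 0 and 4.97 (het HSC) and 20.2 and 0 CPM (wt HSC). Aurkb, a mitotic kinase, had 41.3 and 33.9 (het plate2) and 44.96 and 37.7 CPM (wt plate2), against 4.10 and 0 (het HSC) and 20.2 and 9.71 CPM (wt HSC). In erythroid-marked over stem-marked wells 10 of 12 tested genes were higher and 0 lower, beside 20.2% and 21.9% of all genes. In neutrophil-marked over stem-marked wells 5 of 12 were higher and 0 lower, beside 16.1% and 13.8%. Top2a, the topoisomerase that untangles copied DNA, stood at 2.17 ± 0.39 in erythroid-marked and 2.53 ± 0.46 in neutrophil-marked over stem-marked wells, and the proliferation marker Mki67 at 2.29 ± 0.38 and 1.51 ± 0.48.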

How the data were processed

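RNA of sorted mouse bone marrow progenitors was counted with CEL-Seq2 in 8 libraries. The deposited values are expected counts of transcripts per gene and barcode, with no depth scaling. They follow a correction for identifier collisions in a space of 4096, to within 3.64e-12, and were rounded to whole numbers. BWA 0.6.2-r126 and mm10 are named per the submitters' processing notes; these sources do not state the annotation, the filters or the program that counted. The 70 spike-in rows were left out, and 0% of the other rows name no gene.

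Wells with at least 1000 transcripts were kept, and no doublet caller was run because cells were sorted into wells. Thinning used seed 1. Library sums went into edgeR 4.0.16 under R 4.3.3 (TMM, filterByExpr, quasi-likelihood, two-sided, Benjamini-Hochberg over all genes tested, all 8 libraries in 1 layout). Beside adjusted p values this names the tool throughout. DESeq2 1.42.0 was an alternative. CPM carry no TMM factor, and approximate intervals are the estimate plus and minus the normal 95% multiple of its SE. Python 3.11.15, numpy 2.4.6, pandas 2.3.3, scipy 1.17.1 and matplotlib 3.10.9 were used. The fits were tested on simulated data, with the same spread set for every gene. Between genotypes 2-fold changes were called for 0 of 89 genes in HSC and 3 of 89 in plate2 libraries, and 4-fold changes for 21 and 47 of 88. Between plate sets over both genotypes 7 of 90 genes were called at 2-fold and 69 of 83 at 4-fold. Per-library values are given for the 12 members with most transcripts and for those that passed a library comparison. The members and lists were chosen with earlier results of these data known. Alternatives added after seeing the data were marked wells, place in runs of 8 and crossed replicate numbers. GENCODE vM21 gave overlaps of genes. Same-numbered HSC libraries shared only a number.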

Additional observations from a re-analysis of the deposited data

Results flagged for a closer look

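Own barcodes with fewer than 1000 transcripts, 351 over the 8 libraries, were used in no comparison, and they held 355 member transcripts among 119947. That is 2960 CPM, within the range of the kept wells of the libraries. Libraries per group number 2, so no library was tested as an outlier.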

How the results depend on the processing

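The count of members higher in plate2 than in HSC libraries over both genotypes was 25 and kept its direction under each alternative. It was 16 of 39 tested with at least 2000 transcripts per well and 1 of 3 after thinning each well to 1000. With stem-marked wells only it was 1 of 6 tested, and 4 of these 6 passed over all wells. Over all genes 1303 of 6690 were higher, and 1027 of 6639, 237 of 971 and 309 of 2111 under these alternatives in turn. Without 1 library the median log2 fold change of the members ran from 1.16 to 1.95. In heterozygous libraries the count of 20 became 10 with DESeq2 and 0 of 3 after thinning, and 6 to 29 without 1 library. In wild type libraries the count of 11 became 7 with DESeq2, 4 with at least 2000 transcripts and 0 of 3 after thinning, and 5 to 15 without 1 library. Over plate2 positions 1 of 40 members passed with no low-count filter (0.764% of all genes) and 9 of 22 by place in each run of 8 (29.0%). The erythroid-marked count of 24 ran from 17 to 26 without 1 library, and genes called over all from 813 to 1112 (1124 with all libraries). The neutrophil-marked count of 20 ran from 8 (without wt plate2 library 1) to 22, and genes called over all from 497 to 801 (799 with all libraries). Between these marked wells 0 or 1 passed: none without het plate2 library 2, Hells (lower in erythroid-marked wells) without het plate2 library 1, and Blm without either wt plate2 library. Sums over thinned marked wells and positions left no member to test. The difference in shares between plate sets was 4.15 to 31.7 points over the alternatives and 28.6 to 31.8 without 1 library. Het minus wt was -3.95 points when thinned to 2000 transcripts and -8.68 points in stem-marked wells, and 8.90 with at least 1 member transcript. Without 1 library it ran from 0.47 to 3.73.

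The HSC replicate numbers gave a correlation of deviations of -0.119. With the numbers as a replicate block, 0 members and 2 genes were called between HSC genotypes and 0 members and 5 genes over both sets. With crossed numbers, chosen after seeing the data, 25 and 17 genes were called and 0 members. The causes of these shifts were not tested. HSC libraries have few transcripts per well, which limits what single members can show there.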

Other observations

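In plate2 libraries the wells richest in member transcripts were mostly, but not all, erythroid-marked, and those of the HSC libraries were erythroid-marked, stem-marked or unmarked. In the 4 plate2 libraries the 3 leading wells of each library at equal depth held 8 to 17 member transcripts per 1000, and the well with 17, in wt plate2 library 1, lay outside that library's own barcodes. Of these 12 wells 9 were erythroid-marked, 1 neutrophil-marked, 1 stem-marked and 1 unmarked, where 41.4% of plate2 wells in own barcodes were erythroid-marked. In wt plate2 library 2 another stem-marked well tied with the third at 10 and is not among the 12. The well with 117 member transcripts in het plate2 library 2 showed 35 of the 40 genes and was unmarked. In wt plate2 library 1 a single well of 30714 transcripts showed all 40 genes, with 337 member transcripts. In het HSC library 2 the leading well was stem-marked and held 12 member transcripts per 1000, from 8 genes.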
